A study of Mus musculus with 24 samples.

Results

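The regions described here are the 500 widest domains of H3K27me3 in mouse forelimb buds that lack Sonic hedgehog. They were taken from a list of 20846 H3K27me3 peaks, of which 20791 lay on chromosomes 1 to 19 and X, as the 500 with the largest peak length. Ties in length were broken by the better rank. The domains were thus selected on a measured value, the peak length, so their widths and H3K27me3 values are given as a description and were not tested. The domains were 3500 to 67050 bp wide with a median of 5275 bp, against a median of 150 bp over all peaks. They made up 2.40% of the peaks and 30.4% of the H3K27me3 bases. All of the domains had an FDR of 0. Over the whole list, which is the background used below, 47.2% of peaks had an FDR under 0.05 and the highest was 0.255. Comparisons with all H3K27me3 peaks are thus made with a list that holds many weaker and narrower peaks. A total of 56 domains reached 10 kb. At the limit, the last 2 domains inside were both 3500 bp wide and had ChIP-to-input log2 ratios of 4.20 and 3.94, while the first 2 peaks outside were both 3450 bp wide with log2 ratios of 5.34 and 4.90. Ties in width were sorted by rank, so the last inside were the worst-ranked at their width and the first outside the best-ranked, and their ratios follow that order.

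H3K27me3 is trimethylation of lysine 27 on histone H3. Polycomb repressive complex 2 writes the mark through its catalytic subunits EZH1 and EZH2, and the mark can spread over many nucleosomes around CpG-rich promoters of developmental genes that are silent in a tissue. Acetylation of the same lysine (H3K27ac) is found at active promoters and enhancers, and a single H3 tail cannot carry both. H3K4me2 lies at promoters and enhancers whether these are active or poised. In the limb bud, Polycomb keeps regulators of other tissues silent and takes part in the staggered opening of the Hox clusters.

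The study mapped histone marks by ChIP-seq in forelimb buds at E10.5 (32 to 35 somites) on a Swiss Webster background. The Shh-/- embryos were homozygous for the Shh tm1amc null allele, and the wild-type (WT) controls were, by the study's methods, littermates matched for somites that included heterozygotes. Limbs of several embryos were pooled, with about 400000 cells per immunoprecipitation. NIH3T3 cells, which are mouse fibroblasts able to respond to Hedgehog, provided further H3K27ac lists, with 400 nM purmorphamine (a Smoothened agonist) for 48 h and with the solvent DMSO. The H3K27me3 samples at hand come from Shh-/- limb buds, so nothing below compares H3K27me3 between genotypes. Each of the 7 deposited lists pools 2 immunoprecipitations of a condition, and no list has a replicate of its own. Differences between lists are therefore given as values that could not be set against the spread between replicates. Whole limb buds hold several cell types, so marks on different cells or alleles cannot be told apart from marks on the same nucleosomes.

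The domains were rich in CpG dinucleotides, the feature on which Polycomb domains of vertebrates are centred. Their median ratio of observed to expected CpG was 0.517 (quartiles 0.442 and 0.590), against 0.281 (0.208 and 0.397) in flanks of the same total length and 0.191 over the genome. The ratio was above that of the domain's own flanks in 428 of 500 domains. Median GC content was 53.3% in the domains and 48.4% in the flanks. A median of 11.5% of a domain's bases were masked as repeats, compared with 18.9% in the flanks and 34.3% of the genome. The next 500 peaks by width had a similar CpG ratio, with a median of 0.537. To show what such sequence looks like, the 200 bases with the most CpG outside annotated exons are printed for 5 domains, on the plus strand of GRCm38 with each CpG in capitals. They show the CpG-rich end, since the ratio ran from 0.218 to 0.989 over whole domains. Tlx1 (chr19:45143530-45143729, intergenic) is the widest domain with a protein-coding start, and Skor1 (chr9:63148970-63149169, intergenic) has the largest ChIP-to-input ratio. Hoxd11/Hoxd12 (chr2:74681980-74682179, intronic) and Ptch1 (chr13:63572890-63573089, intronic) have the largest differences in limb H3K27ac between genotypes, and Dlx1 (chr2:71543090-71543289, intergenic) has the most H3K27ac in NIH3T3 cells.
Tlx1: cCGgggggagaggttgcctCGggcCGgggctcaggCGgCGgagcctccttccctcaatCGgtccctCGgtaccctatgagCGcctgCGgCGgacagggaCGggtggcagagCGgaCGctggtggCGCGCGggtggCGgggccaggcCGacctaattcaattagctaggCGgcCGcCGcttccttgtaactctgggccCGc
Skor1: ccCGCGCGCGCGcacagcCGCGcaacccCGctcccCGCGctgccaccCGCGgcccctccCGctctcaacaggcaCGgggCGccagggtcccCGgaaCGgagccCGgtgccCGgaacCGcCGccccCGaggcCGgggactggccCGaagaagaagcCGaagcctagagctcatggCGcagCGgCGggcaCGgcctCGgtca
Hoxd11/Hoxd12: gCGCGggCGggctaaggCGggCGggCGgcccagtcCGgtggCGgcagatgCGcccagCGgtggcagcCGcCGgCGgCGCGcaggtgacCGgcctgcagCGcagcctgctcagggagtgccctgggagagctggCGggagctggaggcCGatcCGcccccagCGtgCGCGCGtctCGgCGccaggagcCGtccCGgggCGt
Ptch1: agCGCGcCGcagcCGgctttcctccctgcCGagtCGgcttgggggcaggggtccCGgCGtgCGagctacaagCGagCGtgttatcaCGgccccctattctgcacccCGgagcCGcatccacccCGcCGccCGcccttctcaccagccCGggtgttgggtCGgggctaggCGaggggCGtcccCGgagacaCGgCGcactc
Dlx1: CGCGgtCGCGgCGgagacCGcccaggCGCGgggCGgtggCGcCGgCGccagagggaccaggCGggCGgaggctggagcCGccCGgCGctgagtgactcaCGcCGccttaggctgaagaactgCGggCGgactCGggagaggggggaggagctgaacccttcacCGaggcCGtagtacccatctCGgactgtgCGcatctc
The Skor1 window held 30 CpG in 200 bases, and the windows of Hoxd11/Hoxd12, Dlx1, Ptch1 and Tlx1 held 29, 26, 24 and 22.

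The widest domains of all stood apart from the rest because they lie over a tandem repeat. The domains in places 1 and 2 (chr8:123537350-123604399 and chr8:123604450-123624799, 67050 and 20350 bp) cover the array of 5S ribosomal RNA genes and are separated by a single 50 bp step. They hold all 51 rRNA genes annotated there, which are transcribed by RNA polymerase III from internal promoters. The copies start a median of 1697.5 bp apart on the minus strand, and 32 of the 51 share an identical sequence. Repeats took up 80.1% and 77.7% of their bases, while no other domain exceeded 38.5%. Reads from near-identical copies cannot be assigned to a single copy, and how multiply mapping reads were treated is not given in the sources used here. Of the 32 results recomputed without these domains, the base coverages changed most, as in Shh-/- H3K4me2 from 8.65% to 8.89%. The widest domains with a protein-coding start were those of Tlx1 (20150 bp) and Foxf1 (20100 bp), encoding regulators of the spleen and of visceral mesoderm. A domain nearest to Polg that holds the microRNA gene Mir9-3 (19750 bp) came next. The other domains among the 20 widest were those of Nfix (19650 bp), Lbx1 (18200 bp), Gsx2 (17900 bp), Pax6 (16850 bp), Dlx1 (16600 bp), Six3 (15150 bp), Pax7 (14950 bp), Nkx2-3 (14900 bp), Pitx1 (14400 bp), Wt1 (13900 bp), Hmx1 (13400 bp), Nkx3-2 (13300 bp), Foxa2 (13300 bp), Foxf2 (13150 bp) and Lhx4 (13100 bp). All of these except Dlx1 hold the start of the gene they are named for, and the Dlx1 domain overlaps that gene and lies 305 bp from the nearest coding start, which is that of Dlx2. A domain with no coding start is named here for the gene it overlaps most, or else for the gene with the nearest start.

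The domains came in blocks. Another domain of the set lay within 10 kb of 201 domains, and another H3K27me3 peak of any width lay within 1 kb of 450. Joining domains within 50 kb gave 358 blocks, of which 92 held 2 or more. The largest block, with 7 domains over chr15:102908650-102979549, was the 5′ part of the HoxC cluster. A block of 6 spanned Hoxb13 to Hoxb9. Blocks of 5 held Pdx1, Cdx2 and Gsx1, which specify pancreas, intestine and forebrain, and Zic1 with Zic4, regulators of the dorsal neural tube. Gata4, Sox1, Nr2e1, Dlx5/Dlx6 and the 5′ HoxD genes each had a block of 4. Chromosomes 2, 5 and 11 carried the most, with 58, 49 and 44 domains, or 0.318, 0.323 and 0.360 per Mb. By length, chromosome 19 stood highest, with 28 domains or 0.456 per Mb. Chromosome X carried 3 domains among its 1744 H3K27me3 peaks.

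Of the 500 domains, 290 (58.0%, 95% Wilson interval 53.6 to 62.2) held an annotated protein-coding transcription start, compared with 6.69% of all H3K27me3 peaks. Wider peaks can hold more starts, and 48.2% of the next 500 peaks, with a median width of 2700 bp, held a coding start. The intervals here cover counting error only, and neighbouring domains are not independent. In all, 302 protein-coding genes started in a domain. A further 100 domains overlapped the body of a coding gene without its start, and the median distance from a domain without a start to the nearest coding start was 3907.5 bp. Of the domains' bases, 42.3% were intronic, 34.1% intergenic, 14.4% in exons outside coding sequence and 9.24% coding, against 42.1%, 54.0%, 2.58% and 1.36% of the genome.

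Transcription factors made up much of this gene content. Of the 302 genes, 153 (50.7%, 45.1 to 56.3) belonged to 16 listed families or clusters of developmental transcription factors, which hold 1.63% of all protein-coding genes. The same share was 9.50% (6.42 to 13.9) among genes that start in the next 500 peaks and 5.88% in the narrower ones. Seen from the families, 153 of 353 listed factors (43.3%, 38.3 to 48.6) started in a domain, against 1.4% of all protein-coding genes. The lists were drawn up with earlier results of these data known, so these counts are a description. The share among the genes of the domains depended on where the limit was set, at 65.1% for the 250 widest and 32.1% for the 1000 widest.

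**Figure D1:**
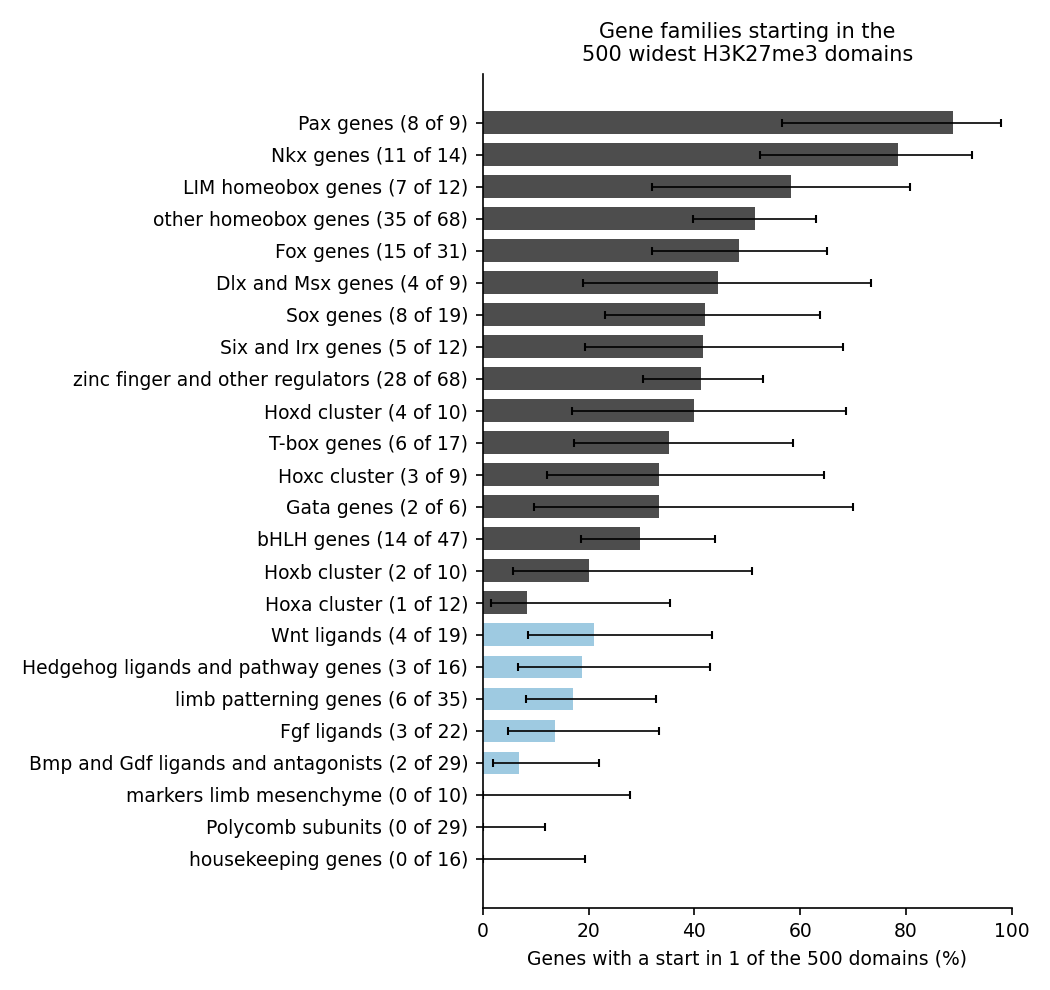
Percent of the annotated genes of each list that have a protein-coding start in 1 of the 500 domains, with counts in parentheses and 95% Wilson intervals as bars. Dark bars are transcription factor families and light blue bars are signalling, limb and reference lists. Pax genes (8 of 9) and Nkx genes (11 of 14) stand highest, and Polycomb subunits, housekeeping genes and limb mesenchyme markers are at 0.

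Coverage differed between families. Among Pax genes, paired-domain regulators of neural, muscle and organ fates, 8 of 9 started in a domain, and only Pax4 did not. Among Nkx genes it was 11 of 14, led by Nkx2-3 (14900 bp), Nkx3-2 (13300 bp) and the cardiac regulator Nkx2-5 (11150 bp). LIM homeobox genes counted 7 of 12. Those inside were Lhx1, Lhx3, Lhx4, Lhx5, Lhx6, Lhx8 and Lmx1a. Those outside were Lhx2, Lhx9, Isl1, Isl2 and Lmx1b. Other homeobox genes counted 35 of 68, with Tlx1, Lbx1, Gsx2 and Pitx1 the widest. Fox genes counted 15 of 31, with Foxf1, Foxa2, Foxf2 and Foxd3 the widest. Sox genes counted 8 of 19, including Sox2, Sox17 and Sox14. The limb chondrogenic regulator Sox9 was not among them. T-box genes counted 6 of 17, bHLH genes 14 of 47, with Olig2, Sim2 and Tal1 the widest, and zinc finger and other regulators 28 of 68, with Wt1 and Nr2e1 the widest. Dlx and Msx genes counted 4 of 9, the Irx genes with the relatives of Six3 5 of 12 and Gata genes 2 of 6.

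Cell type markers were used to check the tissue label. Of 10 limb mesenchyme markers, among them Prrx1, Msx1 and Tbx5, 0 started in a domain and all 10 had an H3K27ac peak within 1 kb of a start in both limb genotypes. Of 8 neural markers 5 started in a domain (Pax6, Olig2, Sox1, Neurog1 and Neurog2), and 0 had limb H3K27ac at a start. Of 8 endoderm markers 6 did, among them Foxa2, Cdx2, Pdx1, Sox17 and Gata4. Limb ectoderm had 1 of 8, muscle precursors 2 of 6 (Pax3 and Pax7) and endothelium and blood 2 of 8 (Tal1 and Gata2). Limb H3K27ac at a start was also rare in these lists. In WT and Shh-/- limbs it marked 0 and 1 of the limb ectoderm markers and 1 and 1 of the endoderm markers. For muscle precursors it marked 0 and 1, and for endothelium and blood 2 and 1. The check thus separates limb mesenchyme from the other lists, limb ectoderm included. Of 16 housekeeping genes and 29 genes for Polycomb subunits and H3K27 demethylases, 0 started in a domain.

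Among signalling genes, the domains took in the ligands of several families. All of the Hedgehog ligands Shh (5600 bp), Ihh (5300 bp) and Dhh (6300 bp) started in a domain. The Shh domain (chr5:28462000-28467599) covers the start of the gene that is inactivated in these embryos, and 82.6% of it is intronic. The other 13 listed Hedgehog pathway genes, such as the receptor genes Ptch1 and Smo and the transcription factor gene Gli3, did not start in a domain. Of 19 Wnt ligands 4 did (Wnt1, Wnt3, Wnt7b and Wnt10b), and of 22 Fgf ligands 3 did (Fgf4, Fgf8 and Fgf11). The Fgf8 domain (8150 bp) had the second largest ChIP-to-input log2 ratio of all 500, at 5.65, after Skor1 at 5.67. Fgf8 is a signal of the apical ectodermal ridge. Domains of Nptx1, Foxe1 and Neurod2 followed, with log2 ratios of 5.64, 5.61 and 5.61. Bmp and Gdf ligands and antagonists counted 2 of 29 (Gdf7 and Inhbb).

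Of 35 limb patterning genes, 6 started in a domain. Pitx1 (14400 bp) and Tbx4 (8100 bp) are determinants of hindlimb identity, and these were forelimb buds. Tbx5, the forelimb counterpart of Tbx4, was not covered at its start. The others were Pax9, Fgf8, Hoxd12 and Hoxd13. Of the 29 limb patterning genes outside, Hand2, Grem1, Fgf10, Alx4, Shox2 and Meis2 are examples. Genes outside the listed families, named after their values were seen, included several of inhibitory and excitatory neurons, namely Slc6a5 (10100 bp), Slc32a1 (9650 bp), Gad1 (7050 bp) and Slc17a6 (6350 bp), which encode glycine, GABA and glutamate transporters and a GABA-synthesising enzyme.

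The Hox clusters carried the domains at their 5′ ends, whose genes act late and distally. Within 10 kb of the clusters there were 3 domains at HoxA, 4 at HoxB, 7 at HoxC and 4 at HoxD. In HoxC they covered 56300 bp around Hoxc13, Hoxc12, Hoxc11 and Hoxc9, and limb H3K27ac covered 0 of these bases in either genotype. Posterior Hoxc genes are known from hindlimb and tail rather than forelimb. At HoxA the domains lay beside Hoxa13 and over Evx1 and held 250 bp of H3K27ac in WT and 0 in Shh-/- limbs. HoxD stood apart. Its 4 domains covered 33150 bp over Evx2, Hoxd13 and Hoxd11/Hoxd12, and H3K27ac covered 7150 bp of them in WT and 1450 bp in Shh-/- limbs. H3K4me2 covered 6150 bp and 2600 bp. Hoxd11 to Hoxd13 are induced in the posterior limb bud downstream of Shh.

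Most domains carried H3K4me2, at least in part. In WT limbs 381 of 500 domains (76.2%, 72.3 to 79.7) overlapped an H3K4me2 peak by at least 1 bp, compared with 21.1% of all H3K27me3 peaks. In Shh-/- limbs 364 did (72.8%, 68.7 to 76.5), compared with 20.2%. Wide regions overlap more peaks for their width alone. The next 500 peaks reached the same shares, 76.6% and 73.0%. By bases the order turned. H3K4me2 covered 10.3% of the bases of the domains in WT and 8.65% in Shh-/- limbs, but 23.2% and 20.2% of the bases of the next 500 and 21.8% and 19.7% of the narrower peaks. These percentages stood above the 0.833% and 0.749% of the genome, on all 20 chromosomes. Among the domains overlapped in WT, H3K4me2 covered a median of 11.8% of the domain, and 98 domains overlapped no H3K4me2 peak in either genotype. It reached 50% in 11 domains in WT and in 7 in Shh-/- limbs. With only the better-ranked 50% of each list, 47.2% of domains overlapped H3K4me2 in WT and 47.4% in Shh-/- limbs, and 6.67% and 5.78% of bases were covered.

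**Figure D2:**
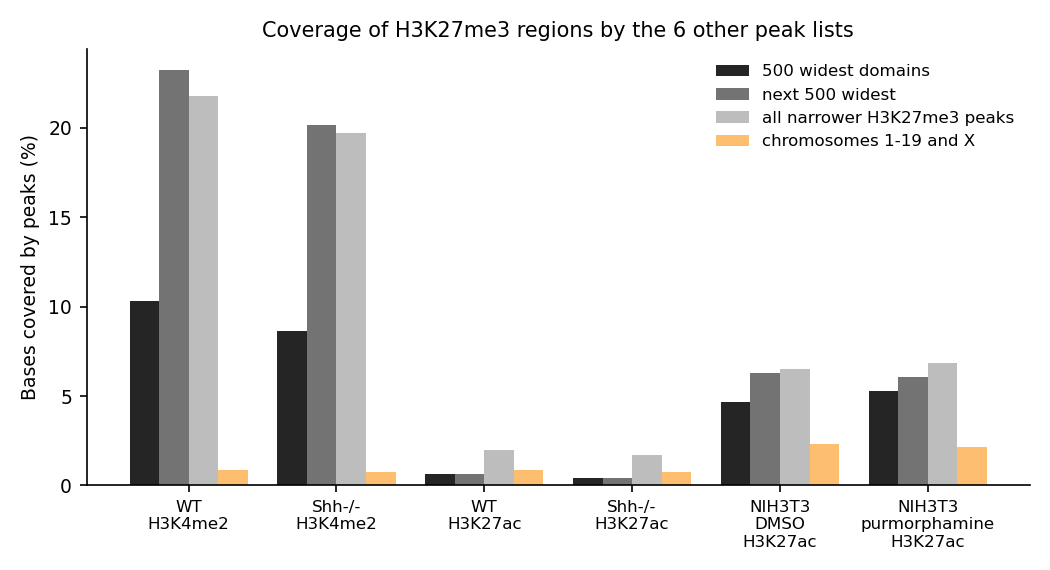
Percent of bases covered by peaks of each of the 6 other lists, for the 500 widest H3K27me3 domains, the next 500 by width, all narrower H3K27me3 peaks and chromosomes 1 to 19 and X as a whole. H3K4me2 covers 10.3% (WT) and 8.65% (Shh-/-) of the widest domains and over 20% of the next 500 in WT, and limb H3K27ac stays under 1% in both of these groups. Each list pools replicates, so there are no error bars.

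Within a domain, H3K4me2 sat around transcription starts. Of domain bases within 1 kb of a coding start, 27.2% were covered in WT and 23.3% in Shh-/- limbs, against 5.68% and 4.58% of bases farther away. Of the 457 coding starts in the domains, 345 (75.5%, 71.3 to 79.2) had a WT H3K4me2 peak within 1 kb, and 320 (70.0%, 65.7 to 74.0) had a Shh-/- peak. Over all 41162 starts these shares were 62.3% and 61.8%. Starts in the next 500 peaks had H3K4me2 in 87.0% and 84.8%. With the better-ranked 50% of each list the shares in the domains were 44.6% and 46.0%. Starts with H3K4me2 and no H3K27ac made up 72.4% of starts in the domains in WT and 67.2% in Shh-/- limbs, compared with 20.2% and 22.5% of all starts. This state was more frequent at starts in the next 500 peaks (86.1% and 82.9%). It was also more frequent at starts in all H3K27me3 peaks outside the domains (84.5% and 81.7%).

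Limb H3K27ac was scarce over the domains. A WT H3K27ac peak overlapped 16 of 500 domains (3.20%, 1.98 to 5.13) and a Shh-/- peak 17 (3.40%, 2.13 to 5.38), compared with 2.12% and 1.91% of all H3K27me3 peaks, so by overlap the domains stood near the background of the list. At transcription starts the share lay below that of all starts. Of the 457 starts in domains, 14 (3.06%, 1.83 to 5.08) had H3K27ac within 1 kb in each genotype, compared with 43% of all starts in WT and 40.2% in Shh-/- limbs. The low share was not particular to the widest domains. It was 0.815% and 2.17% at starts in the next 500 peaks, and 4.78% and 4.19% at starts in all H3K27me3 peaks outside the domains. By bases, H3K27ac covered 0.657% of the domains in WT and 0.416% in Shh-/- limbs, and 0.883% and 0.748% of the genome. These values depended on the gaps between neighbouring peaks. When H3K27me3 peaks within 1 kb were merged before the widest 500 were taken, 9.00% and 8.40% of domains overlapped limb H3K27ac and the coverage was 2.12% and 1.73%, above that of the genome. The shares of starts with H3K27ac were then 7.12% and 6.97%. With the better-ranked 50% of each list, 1.80% of domains overlapped Shh-/- H3K27ac. Over the 250 widest domains the coverage was 0.445% in WT and 0.162% in Shh-/- limbs. In Shh-/- limbs, where all 3 marks were mapped, 349 domains overlapped H3K4me2 alone, 15 both marks, 2 H3K27ac alone and 134 neither.

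The limb acetylation that was present lay in a few domains. A peak in either genotype overlapped 25 domains, and the 5 with most H3K27ac in each genotype held 77.8% of the covered bases in WT and 80.4% in Shh-/- limbs. The Hoxd11/Hoxd12 domain (chr2:74673400-74684299, 10900 bp) led in WT, with 6350 bp covered, and had 1450 bp covered in Shh-/- limbs. Its WT acetylation came from 11 peaks, the widest of 19650 bp reaching beyond the domain and the best at rank 48 of 49669, whereas the best of 2 Shh-/- peaks was at rank 8989 of 43907. Without this domain, WT coverage of all domains fell from 0.657% to 0.460%. The Ptch1 domain (chr13:63570550-63574899, 4350 bp) had 1550 bp covered in WT and 0 in Shh-/- limbs. Ptch1 encodes the Hedgehog receptor and is itself induced by the pathway, and the domain is 29.9% intergenic and otherwise intronic, 4815 bp from the nearest annotated coding start. H3K4me2 covered 1700 bp of it in WT and 850 bp in Shh-/- limbs. Hoxd13 and Rnf220, with 800 bp each in WT and 0 in Shh-/- limbs, and Tbx2, with 800 bp and 400 bp, completed the 5 domains with the largest excess in WT. All of these except Ptch1 and Hoxd11/Hoxd12 were covered by peaks of at most 300 bp.

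**Figure D3:**
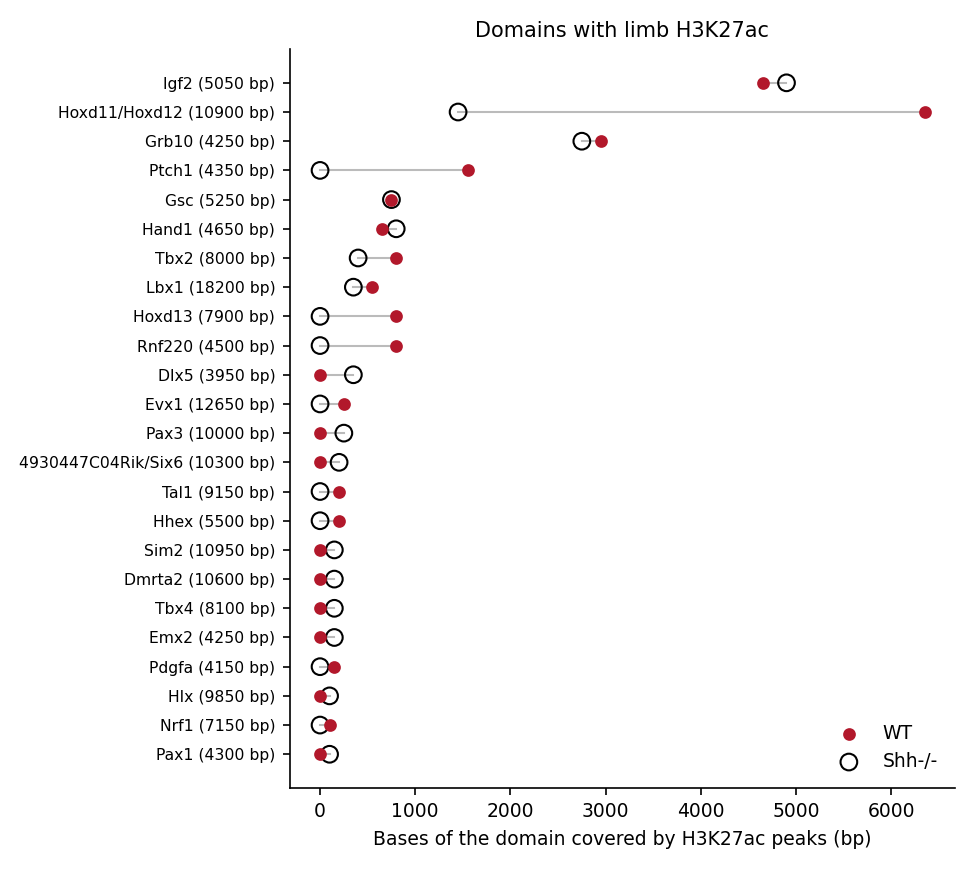
Bases of each domain covered by H3K27ac peaks in WT (filled) and Shh-/- (open) limb buds, for domains with a peak in either list, with the domain width in parentheses. Hoxd11/Hoxd12 (6350 and 1450 bp) and Ptch1 (1550 and 0 bp) show the widest separation, and Igf2 and Grb10 are covered in both genotypes.

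Other domains kept limb H3K27ac in both genotypes. The Igf2 domain (chr7:142658700-142663749, 5050 bp) had 4650 bp covered in WT and 4900 bp in Shh-/- limbs, or 92.1% and 97.0% of its width. The Grb10 domain (chr11:12034600-12038849, 4250 bp) had 2950 bp and 2750 bp. Igf2 is a growth factor gene, and Grb10 encodes an adaptor that restrains growth. Both are imprinted genes, at which the parental alleles can carry different marks in the same cell. Alleles were not told apart here, so whether this holds for these marks was not tested. The Dio3 domain of 6800 bp, also at an imprinted gene, had 0 bp of limb H3K27ac in both genotypes. Igf2, Grb10 and Hoxd11/Hoxd12 were the only domains with at least 50% coverage by limb H3K27ac in WT. Gsc had 750 bp in each genotype, Hand1 650 bp and 800 bp and Lbx1 550 bp and 350 bp. The 5 domains with the largest excess in Shh-/- limbs were Dlx5 (0 in WT and 350 bp in Shh-/- limbs), Igf2, Pax3 (0 and 250 bp), 4930447C04Rik/Six6 (0 and 200 bp) and, tied at 150 bp, Hand1 with Sim2, Dmrta2, Tbx4 and Emx2. Over all 25, 12 domains had more bases covered in WT, 12 in Shh-/- limbs and 1 the same. The sum of covered bases in Shh-/- limbs was 0.632 of that in WT, where the whole Shh-/- list had 0.847 of the bases of the WT list. The difference in sums rests largely on 1 domain. Hoxd11/Hoxd12 held 6350 of the 20950 bp in WT and 1450 of the 13250 bp in Shh-/- limbs.

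Some of the peaks over the domains were found in a single genotype. Of 47 WT H3K27ac peaks over the domains, 35 (74.5%, 60.5 to 84.7) had no overlapping Shh-/- peak, compared with 48.5% of the whole list. These 47 peaks are not independent, since 11 lay over Hoxd11/Hoxd12, 6 over Grb10 and 5 over Tbx2. The interval treats each peak as a unit and is therefore too narrow. Of 28 Shh-/- peaks 17 (60.7%, 42.4 to 76.4) had no overlapping WT peak, compared with 38.4%. With neighbouring H3K27me3 peaks merged these shares were 55.2% and 38.8%. For H3K4me2, 253 of 736 WT peaks over the domains (34.4%, 31.0 to 37.9) and 184 of 705 Shh-/- peaks (26.1%, 23.0 to 29.5) were unshared, compared with 25.7% and 22.5% of the lists. The H3K4me2 peaks over the domains were at a median rank of 61.5% of the WT list and 59.8% of the Shh-/- list, below the middle of each. Many unshared peaks had a neighbour, and when peaks up to 500 bp apart were also called shared, 18.5% and 12.5% of all H3K4me2 peaks over the domains were unshared. H3K4me2 covered more bases in WT in 244 domains and more in Shh-/- limbs in 130. The Shh-/- list also held fewer H3K4me2 bases as a whole, 0.899 of those of the WT list, against 0.837 over the domains. The largest excess in WT was at Hoxd11/Hoxd12 (4350 bp against 1700 bp), followed by Fcgr3 (2150 and 600 bp), and the largest in Shh-/- limbs was at 4930412O13Rik/9230102O04Rik (700 bp in WT and 1950 bp in Shh-/- limbs) and at Adra2a (1000 and 1900 bp). These domains were named after their values were seen.

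In NIH3T3 cells, which come from another cell type in which H3K27me3 was not analysed here, H3K27ac reached more of the same regions. A peak overlapped 84 of 500 domains with DMSO (16.8%, 13.8 to 20.3) and 99 with purmorphamine (19.8%, 16.5 to 23.5), compared with 6.27% and 6.56% of all H3K27me3 peaks. The next 500 peaks, closer in width, reached 13.6% and 14.2%. The covered bases made up 4.67% and 5.28% of the domains, against 2.29% and 2.15% of the genome. By bases the domains stood below the next 500 peaks (6.26% and 6.08%) and the narrower peaks (6.52% and 6.83%). Coverage was above that of the chromosome on 11 of 20 chromosomes with DMSO and on 13 with purmorphamine, and 10 domains held 48.6% and 44.7% of the covered bases. At starts in the domains the shares were 13.1% (10.3 to 16.5) and 15.3% (12.3 to 18.9), compared with 52.2% and 52.3% of all starts. In either NIH3T3 list 20 domains were covered by at least 50%, and 16 of them in both. Of these 16, 1 (Grb10) had limb H3K27ac. Limb H3K27ac was also rare over the whole set, where 475 of 500 domains had none in either genotype. The low count is therefore not particular to the domains covered in NIH3T3 cells.

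**Figure D4:**
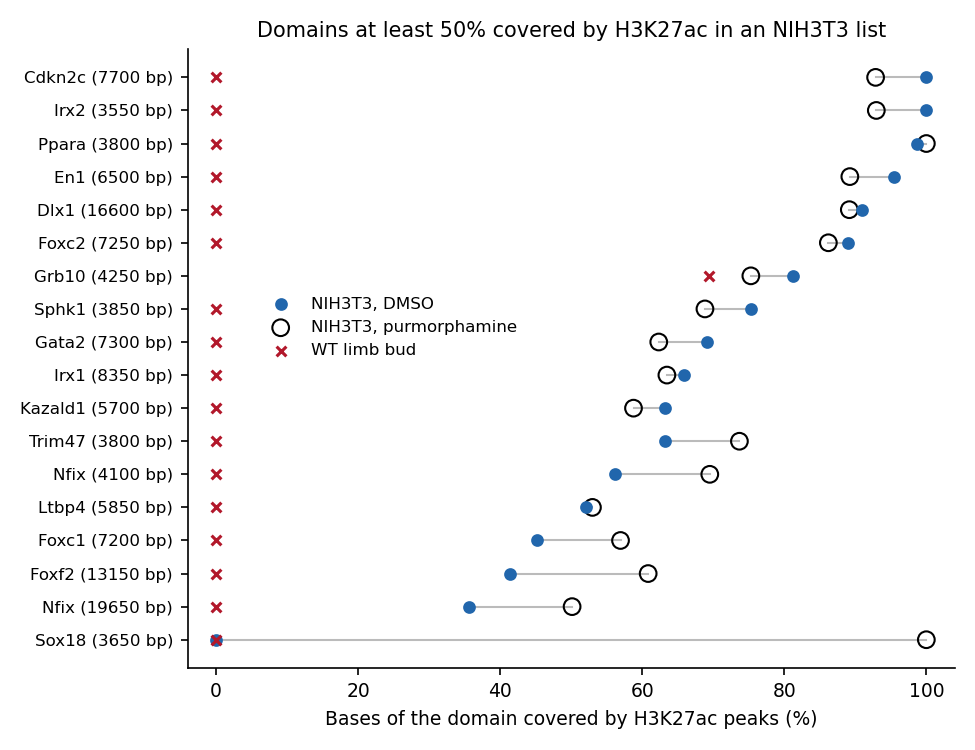
Percent of each domain covered by H3K27ac in NIH3T3 cells with DMSO (filled circles) and purmorphamine (open circles) and in WT limb buds (crosses), for domains at least 50% covered in an NIH3T3 list. Of these, Grb10 has limb H3K27ac, which 475 of all 500 domains lack in both genotypes. The Sox18 domain is at 0% with DMSO and 100% with purmorphamine.

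The domains covered in NIH3T3 cells, named after their values were seen, included those of several transcription factors. The Dlx1 domain (chr2:71529850-71546449, 16600 bp), which lies at the Dlx1 and Dlx2 pair of homeobox genes, had 15100 bp covered with DMSO and 14800 bp with purmorphamine, and 0 in either limb genotype. The Cdkn2c domain (7700 bp) was covered by 7700 bp and 7150 bp. Domains of En1, Foxc2, Irx1, Irx2 and Gata2 were covered by 62.3% to 100%. En1 and Gata2 have more than 1 domain, and those meant here are in places 163 and 122. The domain that holds the Gata2 start (place 81, 8550 bp) had 600 bp covered with DMSO and 700 bp with purmorphamine. At several domains coverage was larger with purmorphamine, with 7000 bp under DMSO and 9850 bp under purmorphamine at the widest Nfix domain and 5450 bp and 8000 bp at Foxf2, a forkhead gene known to respond to Hedgehog. The Sox18 domain (chr2:181669600-181673249, 3650 bp) was at 0 with DMSO and was covered in full with purmorphamine by a peak of 9600 bp at rank 1516 of 87766. Sox18 encodes a regulator of endothelial cells. Over all domains 61 had more bases covered with purmorphamine, 45 with DMSO and 2 the same. Of 202 purmorphamine peaks over the domains 80 (39.6%, 33.1 to 46.5) had no overlapping DMSO peak, compared with 36.5% of the list. Of 154 DMSO peaks 39 (25.3%, 19.1 to 32.7) had no overlapping purmorphamine peak, compared with 41.1%. The peaks over the domains were at a median rank of 43.2% (purmorphamine) and 37.5% (DMSO) of their lists, above the middle of each. They are not independent, since 11 purmorphamine and 6 DMSO peaks lay over the widest Nfix domain. The intervals are therefore too narrow.

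Beside the domains the marks changed with distance. Outside the edges, other H3K27me3 peaks covered 30.7% of the bases within 2 kb, 13.7% from 2 to 5 kb and 1.17% from 20 to 50 kb. WT H3K4me2 covered 7.02% of the bases within 2 kb, 3.81% from 2 to 5 kb and 1.86% from 5 to 10 kb, and 1.92% from 20 to 50 kb. Inside, it was highest from 1 to 2 kb within the edge, at 14.1%, and lower in the interior beyond 2 kb, at 7.74%. Shh-/- H3K4me2 had the same course with lower values. WT H3K27ac covered 0.617% of the interior beyond 2 kb, 0.640% within 1 kb inside the edge and 1.13% within 2 kb outside, and Shh-/- H3K27ac 0.234%, 0.580% and 0.937%. Over the whole 10 kb on both sides WT H3K27ac covered 0.905% and Shh-/- H3K27ac 0.724%, near their genome values of 0.883% and 0.748%. With H3K27me3 peaks within 1 kb merged, these flank values were 1.54% and 1.40%. WT H3K4me2 covered 3.58% and Shh-/- H3K4me2 3.14% of the same flanks. A WT H3K27ac peak lay inside or within 10 kb of 87 domains, and for 71 of these it lay only outside. In NIH3T3 cells the flanks were covered by 3.64% with DMSO and 4.46% with purmorphamine.

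**Figure D5:**
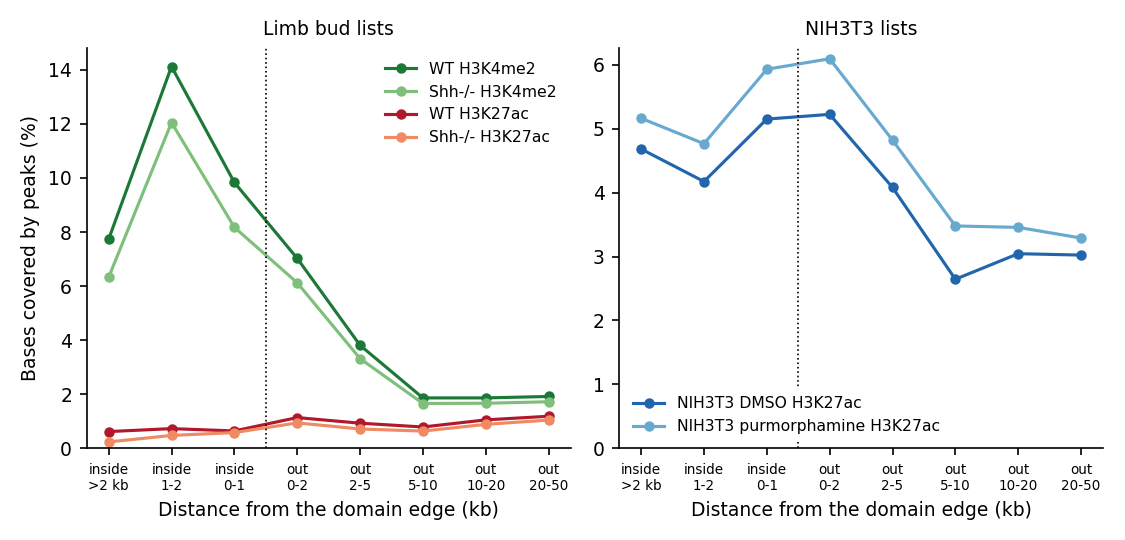
Percent of bases covered by peaks of each list against distance from the edge of the 500 domains, inside (left of the dotted line) and outside, in bins of unequal width. WT H3K4me2 peaks at 14.1% from 1 to 2 kb inside and falls to 1.86% from 5 to 10 kb outside, while limb H3K27ac stays between 0.234% and 1.18%. The limb bud panel and the NIH3T3 panel have different scales.

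Of 500 domains, 87 overlapped no peak of any other list, and 26 of these held a coding start. Foxa2 (13300 bp), the pioneer factor of endoderm and floor plate, was in this class among the widest 20, and so was Neurod2, a neuronal bHLH gene. Domains that held the start of a listed transcription factor were wider than those with another coding gene, with medians of 7500 and 4750 bp, and had a lower H3K4me2 coverage, 9.17% against 16.8% of their bases in WT and 7.73% against 13.8% in Shh-/- limbs. NIH3T3 H3K27ac with DMSO overlapped 16 of 153 domains of the first kind and 35 of 137 of the second.

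MicroRNA genes also lay in the domains, and their mature sequences show which. Of 1174 annotated microRNA genes 12 lay inside 9 domains. For comparison, 1.4% of all protein-coding genes started in a domain. The domains included 2 of the 3 genes for miR-9, Mir9-3 in the domain of 19750 bp nearest to Polg and Mir9-1 in a domain of 4500 bp nearest to Rhbg. The third copy, Mir9-2, lay 2615 bp from the Mef2c domain in place 374. miR-9 is known from neural progenitors. All 3 annotated Mir124a genes lay in domains, nearest to Kif13b, Ythdf1 and Cypt12 (7450, 5300 and 5250 bp). Mir196a-2 lay in a domain of 7650 bp between the Hoxc11 and Hoxc9 domains, which the naming rule assigns to Hoxc5. The other copy, Mir196a-1, lay 2535 bp from the Hoxb9 domain. miR-196a lies within the Hox clusters and targets Hox transcripts. Of 2 genes for miR-129-5p, Mir129-2 lay in a domain of 6200 bp. The mature strands below are those named here, taken from RefSeq (GRCm38.p6) and printed 5′ to 3′ with the seed (bases 2 to 8) in capitals. They share no seed with each other.
miR-9-5p: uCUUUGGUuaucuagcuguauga
miR-9-3p: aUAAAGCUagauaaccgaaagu
miR-129-5p: cUUUUUGCggucugggcuugc
miR-196a-5p: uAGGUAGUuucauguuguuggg
miR-1247-5p: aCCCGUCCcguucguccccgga
Limb H3K27ac covered 0 bases of these miRNA domains in either genotype. H3K4me2 covered 1000 bp of the Mir9-3 domain in WT and 0 in Shh-/- limbs. It covered 750 bp of the domain nearest to Kif13b in both, and 0 of the Mir9-1 and Mir196a-2 domains in both. The miR-1247 gene lies in the Dio3 domain (6800 bp), at an imprinted gene for an enzyme that inactivates thyroid hormone, and H3K4me2 covered 700 bp of it in WT and 1050 bp in Shh-/- limbs.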

How the data were processed

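ChIP-seq peak lists of 7 conditions were used, each made by the authors from 2 immunoprecipitations together, against input, with CisGenome on mm10. Reads were aligned with Bowtie2 2.2.5, and limma is also named in the submitters' processing notes. The deposited columns are rank, position, peak length in bp, an FDR (a q-value), a maximum T score and a log2 ratio of ChIP to input. The authors also deposited the −log10 of each peak's smallest Poisson p-value, which was not used here. The other columns were taken as deposited, without a normalization of their own, and coordinates were read as given on a 50 bp grid, where a shift of 1 base is possible. The study's methods give a common minimum sequencing depth, but the lists hold no read counts, so the depth behind a peak is not given. Peaks on chromosomes 1 to 19 and X were kept.

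Overlap meant at least 1 bp, and a start was marked by a peak within 1 kb. Genes came from GENCODE on GRCm38, sequence and repeats from the same build, and miRNAs from RefSeq. Intersections used Python 3.11.15, numpy 2.4.6 and pandas 2.3.3, were checked against bedtools 2.31.1 and tested on simulated data. Intervals are 95% Wilson intervals, and no test was run. Domains and genes were named by fixed rules of width, coverage and list membership, apart from those said above to be named after their values were seen. The domains and the gene lists were chosen with earlier results of these data known. Alternatives were other list thresholds, other numbers of domains, merged domains, other windows and flanks. WT H3K27me3 was not analysed here, and a few named domains and sequences are not reported here or drawn in the figures.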

Additional observations from a re-analysis of the deposited data

How the results depend on the processing

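No paired analysis was possible because each deposited list pools both replicates and no result comes from a test, and leaving out a replicate was not possible for the same reason. Over 32 results, 248 values under alternatives were computed, of which 202 stayed within a range set around the reported value and 46 did not. The range was the 95% Wilson interval for shares of domains, starts or peaks and the quartiles over domains for CpG and GC. For percentages of bases it was a nominal Wilson interval with the 500 domains as the units, which is a yardstick and no measure of error. Leaving out the domains over the 5S array, chosen after seeing the data, moved no result outside these ranges. Merging H3K27me3 peaks within 1 kb gave overlap shares of 90.2% (WT H3K4me2), 86.8% (Shh-/- H3K4me2), 9.00% (WT H3K27ac), 8.40% (Shh-/- H3K27ac), 23.2% (DMSO) and 26.6% (purmorphamine). It gave limb H3K27ac coverage of 2.12% and 1.73% in WT and Shh-/- limbs, coding starts in 77.0% of domains, H3K27ac at 7.12% (WT), 6.97% (Shh-/-), 17.9% (DMSO) and 20.0% (purmorphamine) of starts, and 55.2% and 38.8% of WT and Shh-/- H3K27ac peaks unshared. The better-ranked 50% of the lists gave overlap shares of 47.2% and 47.4% for H3K4me2, 1.80% for Shh-/- H3K27ac, 13.0% for DMSO and 14.8% for purmorphamine, H3K4me2 coverage of 6.67% and 5.78%, marked starts of 44.6% and 46.0% for H3K4me2 and 1.75% and 1.31% for limb H3K27ac, and 30.5% and 31.1% of H3K4me2 peaks unshared. Within the nominal ranges, but by over 1.5 times, merging moved limb H3K27ac in the flanks to 1.54% (WT) and 1.40% (Shh-/-), the 250 widest domains moved Shh-/- H3K27ac coverage to 0.162%, and counting peaks within 500 bp moved the Shh-/- H3K27ac share to 5.20%. Equal list sizes gave 11.2% (DMSO) and 13.4% (purmorphamine), WT H3K4me2 peaks with an FDR under 0.05 gave 70.8%, and counting Shh-/- H3K4me2 peaks within 500 bp gave 76.6%. The 250 widest domains gave 66.8% with a coding start, 65.1% listed factors and 63.1% of starts with Shh-/- H3K4me2. The 1000 widest gave 53.1%, 32.1% and 76.6%, with WT H3K4me2 at 80.6% of starts and H3K4me2 coverage of 14.2% and 12.1%. A start window of 500 bp gave 66.96% and 63.7% for H3K4me2, and one reaching 2 kb upstream and 1 kb downstream gave 16.6% for DMSO. Calling peaks up to 500 bp apart shared gave 18.5% and 12.5% of H3K4me2 peaks unshared. The cause of these shifts was not tested, beyond the fewer or wider regions that each alternative holds by construction. Of 34 values for H3K27ac in single named domains, added after seeing the data, 31 stayed within 1.5 times the reported value. The lists give no depth, so a domain without a peak may hold signal below the caller's threshold.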
